A study of Mus musculus with 2 samples.

Results

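Cyclins, cyclin-dependent kinases (CDKs) and CDK inhibitors were examined in mouse embryonic fibroblasts given celastrol or its solvent. Members were the genes whose annotated symbol has the form of a cyclin (Ccn with a letter), a numbered CDK or a numbered CDK inhibitor (Cdkn) and that a probe set named alone. The symbols gave 52 genes, of which 1 was left out by the rule, so that 51 of the 19938 genes on the array were members. For a gene with several probe sets the brightest one was used. The cultured fibroblasts had all been infected with an adenovirus carrying LacZ, and were given 250 nM celastrol or DMSO for 7 h in DMEM with 1% FBS. Celastrol is a quinone methide triterpenoid of plant origin. Each condition had 1 Affymetrix array, so that treatment, culture and array cannot be told apart, and no difference has a replicate check, an error or a p-value. Whether the fibroblasts were primary cells or a line is not given in the sources used here.

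A CDK has little activity until a cyclin binds it, and different cyclins appear at different stages of division. D-type cyclins with Cdk4 or Cdk6 act in G1, cyclins E and A with Cdk2 at the entry into and passage through S phase, and cyclins A and B with Cdk1 at mitosis. INK4 proteins bind Cdk4 and Cdk6, whereas CIP/KIP proteins bind cyclin-CDK complexes more broadly. A further branch of the family, including Cdk7, Cdk8, Cdk9 and Cdk12, acts on RNA polymerase II and on splicing, and Cdk7 in addition activates the division cycle CDKs.

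The letters before the transcription start are shown for the mitotic group and for the member with the highest difference. Ccnb2, Cdk1, Ccnf and Cdkn3 are the detected mitotic members and a cell cycle phosphatase, and all had lower values with celastrol. Only the difference of Ccnb2 lay below the range of array scatter described below. Ccnl1 had the highest difference of any member. Sequences are the 250 bases before the RefSeq transcript start (GRCm38.p6), 5′ to 3′ on the gene's strand. In the first 4, capitals mark the cell cycle homology region (CHR, TTTGAA or TTCGAA on either strand), which MuvB complexes bind, and the CCAAT box of NF-Y (either strand). In Ccnl1 they mark the cyclic AMP response element (CRE, TGACGTCA), a site for CREB and ATF proteins.
Ccnb2 (chr9:70421555-70421804, minus strand): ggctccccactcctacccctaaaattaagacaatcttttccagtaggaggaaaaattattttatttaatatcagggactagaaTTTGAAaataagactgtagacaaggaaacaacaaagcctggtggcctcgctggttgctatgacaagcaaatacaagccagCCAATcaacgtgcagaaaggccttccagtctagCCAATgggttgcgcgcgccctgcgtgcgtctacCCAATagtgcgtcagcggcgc
Cdk1 (chr10:69352913-69353162, minus strand): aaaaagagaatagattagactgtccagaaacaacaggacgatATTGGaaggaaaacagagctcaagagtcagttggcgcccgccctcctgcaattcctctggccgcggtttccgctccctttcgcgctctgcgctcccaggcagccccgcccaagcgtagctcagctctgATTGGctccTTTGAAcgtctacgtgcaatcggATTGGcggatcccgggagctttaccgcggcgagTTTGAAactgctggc
Ccnf (chr17:24251410-24251659, minus strand): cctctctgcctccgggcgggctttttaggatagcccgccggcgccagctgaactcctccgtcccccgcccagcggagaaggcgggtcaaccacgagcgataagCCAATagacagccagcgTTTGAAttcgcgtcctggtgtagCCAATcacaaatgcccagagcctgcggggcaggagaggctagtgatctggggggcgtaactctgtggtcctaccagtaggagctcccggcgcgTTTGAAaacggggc
Cdkn3 (chr14:46760291-46760540, plus strand): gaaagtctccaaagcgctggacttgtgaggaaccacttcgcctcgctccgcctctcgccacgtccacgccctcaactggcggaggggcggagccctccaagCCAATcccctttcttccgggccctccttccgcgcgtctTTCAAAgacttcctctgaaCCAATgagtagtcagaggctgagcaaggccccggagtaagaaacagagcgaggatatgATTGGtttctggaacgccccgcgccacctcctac
Ccnl1 (chr3:65958250-65958499, minus strand): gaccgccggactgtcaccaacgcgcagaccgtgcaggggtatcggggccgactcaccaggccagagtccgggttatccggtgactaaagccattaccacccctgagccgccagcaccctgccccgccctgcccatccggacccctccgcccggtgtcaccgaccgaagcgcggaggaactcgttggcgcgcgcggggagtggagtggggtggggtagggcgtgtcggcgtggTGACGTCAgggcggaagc

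All 4 of these cell cycle promoters held both the CHR letters and CCAAT, which together occurred in 6.02% of 32851 RefSeq promoter windows of this length. CHR letters, with or without CCAAT, occurred in 17.1% of windows and CCAAT in 33.8%. In Ccnb2, 3 CCAAT boxes lay at -87, -54 and -21 from the start and the CHR letters at -167. Cdk1 held CHR letters at -71 and -15, 3 CCAAT boxes, and 1 E2F-type site at -131 (TTTGGCGC, TTTCCCGC, TTTGCCGC or TTTCGCGC were searched, present in 1.86% of windows). Ccnf held CHR letters at -130 and -14 with 2 CCAAT boxes, and Cdkn3 held CHR letters at -111 with 3. The Ccnl1 window held the CRE letters at -18, a match seen in 1.55% of windows. Of the 40 members with a window, 7 held CHR letters and 19 held CCAAT. Both were held by 5, the fifth being Cdk16. An E2F-type site was found in 3 members and a CRE in 2, the other being Cdkn2b. For Ccna2 and Ccne1, which also had lower values with celastrol, no match was found. Either their windows held none or they had no window. A link between these letters and the differences was not tested. The antioxidant response element TGACNNNGC was found in 7 of these 40 members and in 10.2% of all windows, and the heat shock element in 1 member and 0.466% of windows. The shares were not adjusted for base composition, and some genes have more than 1 window. A match describes letters and not binding.

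**Figure D1:**
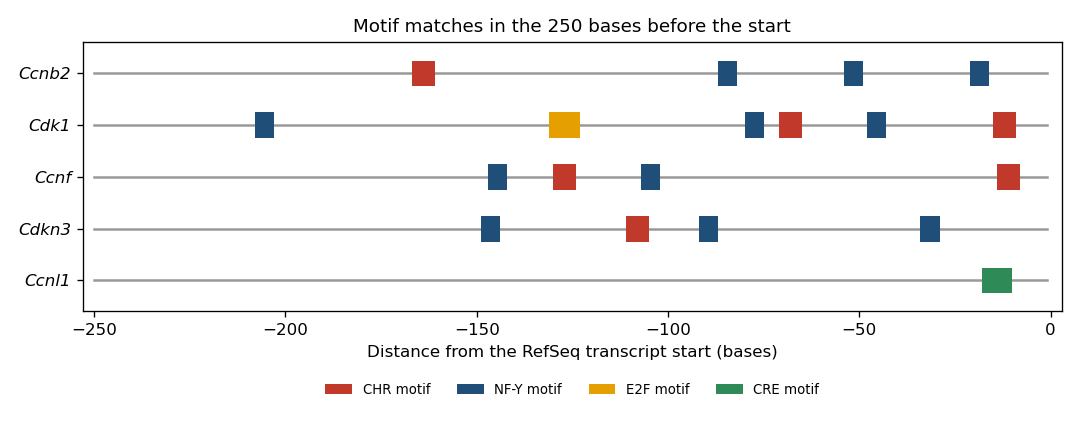
Motif matches in the 250 bases before the RefSeq start of 5 genes. The horizontal axis is the distance from the start in bases and each block is 1 match on either strand, coloured by motif (the NF-Y motif is the CCAAT box). The upper 4 rows hold CHR and NF-Y matches, and Ccnl1 holds the CRE alone.

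Detection was set by the olfactory and vomeronasal receptors, genes that fibroblasts are not expected to express, of which 1210 probe sets were measured. A gene was detected when either array read above 5.73, the log2 value under which 95% of those readings lay. By this limit 48 of the 51 members were detected. Ccna1, the germline cyclin A, Ccnb3, the meiotic cyclin B, and Cdk15, a kinase related to Cdk14, were not. Each difference given is celastrol minus DMSO, in log2 units. As a yardstick for array scatter, the central 95% of receptor probe sets differed by between -0.42 and 0.41. Those probe sets are dim and their scatter leaves out variation between cultures.

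The family had a median near 0, with single genes at both ends. Its 48 detected genes had a median difference of -0.06, beside -0.01 over 13899 detected genes. Of the 48, 20 lay above 0 and 28 below, beside 6682 above and 7216 below over all detected genes. Values at least 1.5-fold higher with celastrol were found for 5 members (10.4%), where 6.19% of all detected genes were that much higher. Values at least 1.5-fold lower were found for 3 members (6.25%), beside 4.68% of all detected genes. No member differed by 2-fold in either direction, as did 1.89% of detected genes upward and 0.662% downward. These shares are near those of the array as a whole, so what follows concerns which genes stood at each end. The 5 higher members were Ccnl1, Cdk20, Cdk17, Cdk8 and Cdkn2aip, none of which is a cyclin or kinase of the division cycle groups or an inhibitor. The inhibitor gene Cdkn1a is not a member. A probe set shared by Cdkn1a and 4930567H12Rik was 5.80-fold higher and is described below. The 3 lower members were Ccnb2, Ccne1 and Ccna2, all cyclins of the division cycle. After subtraction of a lowess trend Ccne1 (-0.58) and Ccna2 (-0.56) lay just inside 1.5-fold, which left 1 lower member. A difference outside the receptor range was found for 16 members, 9 above it and 7 below it, while 11.2% of all detected genes lay above that range and 10.5% below it.

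**Figure D2:**
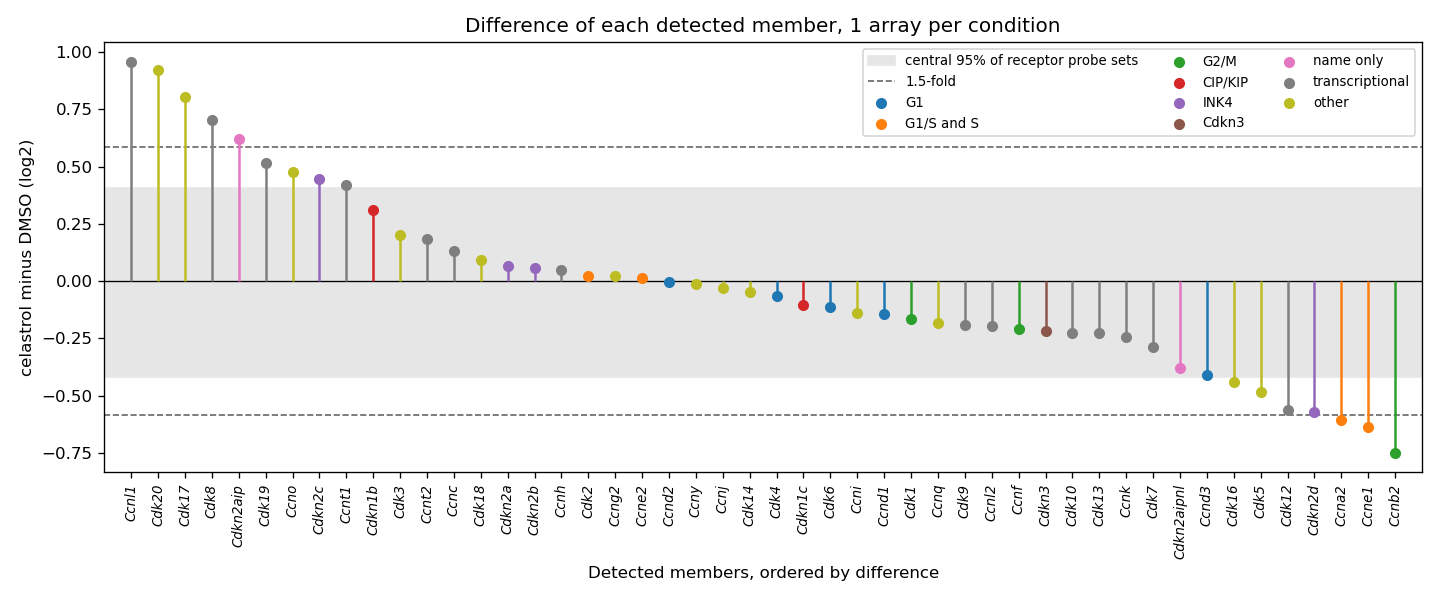
Difference of the 48 detected members (celastrol minus DMSO, log2; 1 array per condition), in order and coloured by role. The grey band is the central 95% of receptor probe sets (-0.42 to 0.41) and dashed lines mark 1.5-fold. Ccnl1 and Cdk20 stand highest and Ccnb2 lowest, and 32 members lie inside the band.

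Among G1 genes all 5 had differences below 0, but by little. Ccnd1, the cyclin that growth factors induce in fibroblasts, was at 11.05 with celastrol and 11.19 with DMSO (-0.14). Ccnd2, the second D-type cyclin, was at 12.23 on both arrays, with a difference of -0.01 that became positive under some normalizations. Ccnd3 stood furthest from 0 in this group, at 10.15 with celastrol and 10.56 with DMSO (-0.41), at the edge of the receptor range. The D-cyclin partners Cdk4 and Cdk6 were at 13.21 and 10.92 with celastrol, against 13.28 and 11.04 with DMSO. Their differences of -0.07 and -0.11 lay well within that range. The group's median was -0.11.

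Among genes of the G1/S passage and of S phase, 2 cyclins had lower values, and the other detected cyclin and the kinase had differences near 0. Ccne1, a cyclin that activates Cdk2 at S phase entry, was at 9.51 with celastrol and 10.15 with DMSO, 1.56-fold lower. Its paralogue Ccne2 was at 9.36 with celastrol and 9.35 with DMSO, a difference of 0.01. No test of the contrast between the E-type cyclins was possible. Ccna2, the cyclin A of somatic cells, was at 11.32 with celastrol and 11.93 with DMSO, 1.52-fold lower. Cdk2, the kinase that all 3 bind, was at 10.31 with celastrol and 10.28 with DMSO (0.02). The median of the 4 detected genes, -0.30, lies between these pairs and describes neither.

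Of the G2/M genes, Ccnb2, a mitotic cyclin, had the lowest difference of any detected member. It was at 10.77 with celastrol and 11.52 with DMSO, 1.68-fold lower, which placed it as number 292 from the bottom of 13899 detected genes. Cdk1, the mitotic kinase it binds, was at 11.61 with celastrol and 11.78 with DMSO (-0.17). Ccnf, an F-box protein that recruits substrates to an SCF ubiquitin ligase, was at 9.79 with celastrol and 9.99 with DMSO (-0.21). Cdkn3, a phosphatase that removes the activating phosphate of Cdk2, was at 8.62 with celastrol and 8.84 with DMSO (-0.22). All 4 differences were negative, and that of Ccnb2 alone left the receptor range. Ccnb1, the other main mitotic cyclin, was not analysed here. Over the 12 detected division cycle genes, the 8 cyclins had a median of -0.31 and the 4 kinases one of -0.09. The split into cyclins and kinases was not among the planned medians and was not recalculated under the alternatives.

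**Figure D3:**
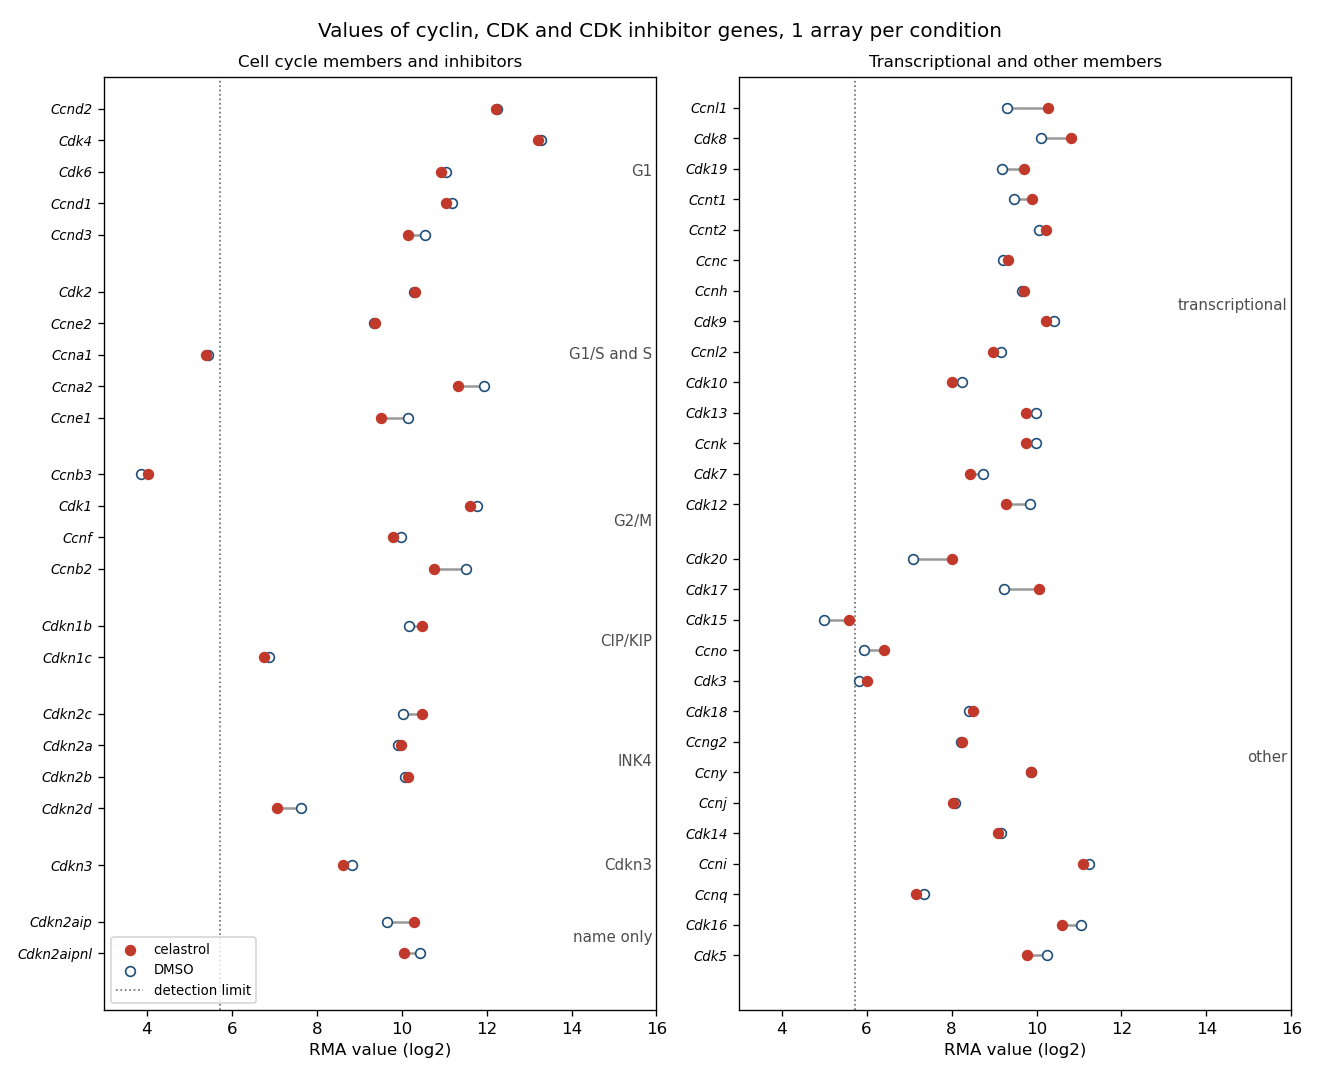
Log2 values of all 51 members on the celastrol array (filled red) and the DMSO array (open blue), grouped by role, with 1 array per condition. The dotted line is the detection limit of 5.73, under which Ccna1, Ccnb3 and Cdk15 lie on both arrays. Ccnb2, Ccne1 and Ccna2 have visibly lower values with celastrol, and Ccnl1, Cdk8, Cdk20 and Cdk17 higher ones.

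The CIP/KIP inhibitors were represented by 2 members. Cdkn1b, which encodes p27, was at 10.49 with celastrol and 10.18 with DMSO, 1.24-fold higher. Its second, dimmer probe set gave 7.10 with celastrol and 6.79 with DMSO, and both differences came to 0.31. Cdkn1c, which encodes p57, was at 6.77 with celastrol and 6.87 with DMSO (-0.10). The third gene of this family, Cdkn1a, which encodes the p53-inducible p21, is no member, because the annotation of its probe set also names 4930567H12Rik. That shared probe set (10443463) was at 11.67 with celastrol and 9.13 with DMSO, a difference of 2.54 or 5.80-fold. It was larger than the difference of any member, the highest of which was 0.96. Both RefSeq transcripts that the annotation lists for the probe set belong to Cdkn1a, but the share of the signal from each gene was not tested.

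The 4 INK4 genes did not move together. Cdkn2c, which encodes p18, was at 10.48 with celastrol and 10.04 with DMSO, 1.36-fold higher and just above the receptor range. Cdkn2d, which encodes p19-INK4d, went the other way, at 7.07 with celastrol and 7.64 with DMSO, 1.49-fold lower and just short of the 1.5-fold limit. Cdkn2a, the locus of p16 and of the p53 activator ARF, was at 9.98 with celastrol and 9.92 with DMSO (0.07). Cdkn2b, which encodes p15, was at 10.14 with celastrol and 10.09 with DMSO (0.06). The value of Cdkn2a stands for the locus and does not separate its 2 proteins. The symbol pattern also took in a pair of genes that are not CDK inhibitors. Cdkn2aip, which encodes a binding partner of ARF, was at 10.28 with celastrol and 9.66 with DMSO, 1.54-fold higher. Cdkn2aipnl, named for its similarity to that gene, was at 10.06 with celastrol and 10.44 with DMSO (-0.38).

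Among members, the highest difference lay in the branch that acts on transcription and splicing. The probe set shared by Cdkn1a and 4930567H12Rik, which is not counted as a member, had a larger one. Ccnl1, cyclin L1, a partner of Cdk11 in pre-mRNA splicing, was at 10.27 with celastrol and 9.31 with DMSO, 1.94-fold higher, number 301 from the top of 13899 detected genes. Ccnl2, its paralogue in the same process, was at 8.98 with celastrol and 9.17 with DMSO (-0.19). The 2 cyclin L genes therefore had differences of opposite sign.

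Both kinases of the Mediator module had higher values. Cdk8 was at 10.82 with celastrol and 10.12 with DMSO, 1.63-fold higher, and its paralogue Cdk19 at 9.70 with celastrol and 9.18 with DMSO, 1.43-fold higher. Ccnc, cyclin C, which both kinases bind, was at 9.34 with celastrol and 9.20 with DMSO (0.13). A further probe set annotated to Cdk8 together with the ribosomal RNA gene Rn28s1 was at 14.52 on both arrays and was not used for Cdk8.

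In the elongation factor P-TEFb the cyclins and the kinase differed in sign. Ccnt1 was at 9.89 with celastrol and 9.47 with DMSO (0.42), and Ccnt2 at 10.23 with celastrol and 10.05 with DMSO (0.18). Cdk9, the kinase, was at 10.22 with celastrol and 10.41 with DMSO (-0.19). Hexim1, which holds P-TEFb inactive on the 7SK RNA, was at 8.01 with celastrol and 8.47 with DMSO (-0.46), while Larp7, which stabilises that RNA, was at 10.45 on both arrays. Of these, Ccnt1 and Hexim1 lay just outside the receptor range.

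The cyclin K kinases, which phosphorylate the tail of RNA polymerase II late in elongation, and cyclin K itself had differences below 0 on the probe sets used. Ccnk was at 9.753 with celastrol and 9.998 with DMSO (-0.24), and Cdk13 at 9.76 with celastrol and 9.98 with DMSO (-0.23). Cdk12 was at 9.27 with celastrol and 9.84 with DMSO (-0.56). Its second probe set pointed the other way, at 7.22 with celastrol and 7.01 with DMSO (0.21), so the direction for Cdk12 depends on the probe set. Several probe sets were detected for 761 genes, and the differences within a gene spread by a median of 0.10 and by up to 0.51 in 90% of genes, and the Cdk12 pair exceeded that, as did the Cdk7 pair described next.

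Cdk7 and Ccnh form the CDK-activating kinase, which is also part of TFIIH. Cdk7 was at 8.44 with celastrol and 8.73 with DMSO (-0.29), and its dimmer probe set gave -0.82, with a celastrol value of 5.69 under the detection limit. Ccnh was at 9.70 with celastrol and 9.65 with DMSO (0.05). Cdk10, a kinase that in human cells pairs with cyclin Q, was at 8.01 with celastrol and 8.24 with DMSO (-0.23), and a second probe set gave -0.17. Ccnq was at 7.16 with celastrol and 7.34 with DMSO (-0.18). Over the transcriptional group, the 7 cyclins had a median of 0.13, with 5 above 0 and 2 below. The 7 kinases had a median of -0.23, with 2 above 0 (Cdk8 and Cdk19) and 5 below. This split was not planned either. The median of all 14, which was planned, was -0.07.

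Among the remaining members, Cdk20, a kinase of primary cilia, had the second highest difference of all members. It was at 8.02 with celastrol and 7.09 with DMSO, 1.89-fold higher. Cdk17, one of the PCTAIRE kinases, was at 10.05 with celastrol and 9.25 with DMSO, 1.74-fold higher. The other PCTAIRE kinases did not share this. Cdk16 was at 10.61 with celastrol and 11.05 with DMSO (-0.44), and Cdk18 at 8.50 with celastrol and 8.40 with DMSO (0.09). Cdk5, best known for its work in neurons with p35, was at 9.77 with celastrol and 10.25 with DMSO, 1.40-fold lower. Its activators Cdk5r1 (0.19) and Cdk5r2 (0.08) had differences near 0.

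Ccno, a cyclin of multiciliated cells, was at 6.42 with celastrol and 5.94 with DMSO (0.48), close to the detection limit on both arrays. Cdk3, which the RefSeq table lists as a transcribed pseudogene in the mouse, was also near that limit, at 6.01 with celastrol and 5.81 with DMSO (0.20). Ccny, a membrane-bound cyclin, was at 9.87 with celastrol and 9.88 with DMSO, and Cdk14, the kinase it brings to the membrane, at 9.10 with celastrol and 9.15 with DMSO. Ccng2, an atypical cyclin linked to growth arrest, was at 8.24 with celastrol and 8.21 with DMSO (0.02). Ccni was at 11.10 with celastrol and 11.24 with DMSO (-0.14), with -0.12 from its second probe set, and Ccnj was at 8.04 with celastrol and 8.07 with DMSO (-0.03). These last 5 cyclins and kinases all lay well inside the receptor range.

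Genes that act on the family were followed in 5 lists. The RB and E2F list, of pocket proteins that hold back division and the factors they bind, had 13 of 13 genes detected and a median of 0.06. None was 1.5-fold higher and 1 was 1.5-fold lower, beside the 6.19% and 4.68% of all detected genes. That gene was Rbl2, the pocket protein p130 of resting cells, at 7.89 with celastrol and 8.63 with DMSO (-0.75). It was followed by E2f5 (-0.45) and E2f8 (-0.37). The highest were E2f6 (0.56), E2f3 (0.26) and Rb1 (0.26), and E2f6 had a DMSO value of 5.78, close to the limit.

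Of 21 detected kinases, phosphatases and subunits that act on CDKs, none differed by 1.5-fold, and the median was -0.06. Cdk2ap2 (0.56), Wee1 (0.37), the kinase that inhibits Cdk1, and Cdk5r1 (0.19) were highest. Cdk2ap1 (-0.50), Hexim1 (-0.46) and Cks1b (-0.35), a CDK-binding subunit that p27 degradation needs, were lowest. Of the Cdc25 phosphatases, which remove the phosphates that Wee1 adds, Cdc25a stood at 0.02, Cdc25b at -0.34 and Cdc25c at -0.24.

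The list of genes that degrade cyclins and inhibitors leaned below 0, with 23 of 29 detected genes below it and a median of -0.17. Over all detected genes 7216 of 13899 lay below 0. In the list 2 genes were 1.5-fold lower and 1 was 1.5-fold higher, shares near the 4.68% and 6.19% of all detected genes. The lowest were Anapc2, a core subunit of the anaphase-promoting complex, at 9.52 with celastrol and 10.26 with DMSO (-0.75), and Fzr1, its G1 activator Cdh1, at 9.33 with celastrol and 9.99 with DMSO (-0.66). Cdc23, another subunit, stood at -0.56. The highest was Cryab (0.70), a small heat shock protein listed as a cofactor in cyclin D1 degradation, followed by Dtl (0.35) and Cdc27 (0.20). Skp2, the SCF receptor for p27, was at 10.22 with celastrol and 10.48 with DMSO (-0.26).

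Factors known to act on transcription of these genes had a median of 0.15, with 23 of 32 detected genes above 0, 2 of them 1.5-fold higher and none 1.5-fold lower. Over all detected genes 6682 of 13899 lay above 0 and 6.19% were 1.5-fold higher, close to the share in the list, and 4.68% were 1.5-fold lower. Mdm2, the ubiquitin ligase and target of p53, was at 10.09 with celastrol and 8.96 with DMSO, 2.19-fold higher. Klf6 (0.70) and Id1 (0.52) followed, and Foxo4 (-0.46), Trp63 (-0.38) and Tcf7l2 (-0.28) were lowest. Myc, an activator of growth genes, was at 12.41 with celastrol and 11.92 with DMSO (0.49). Foxm1, an activator of mitotic genes, was at 9.95 with celastrol and 10.05 with DMSO (-0.10), and Mybl2, which works with it on MuvB complexes, stood at 0.41.

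The remaining proliferation genes leaned below 0, with 15 of 19 below 0, 1 of them 1.5-fold lower, none 1.5-fold higher and a median of -0.23. Beside these, 7216 of 13899 detected genes lay below 0, 4.68% were 1.5-fold lower, near the share in the list, and 6.19% were 1.5-fold higher. Aurkb, a mitotic kinase, was at 10.36 with celastrol and 11.02 with DMSO (-0.66), and Plk1 (-0.46) and Top2a (-0.44) followed. The highest were Pcna (0.35), Mcm2 (0.23) and Mcm5 (0.19), which act in DNA replication. Mki67, present in dividing cells, was at 10.78 with celastrol and 11.11 with DMSO (-0.32). In bulk RNA, fewer cells in a phase and less transcript per cell cannot be told apart, here and for the cyclins above.

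**Figure D4:**
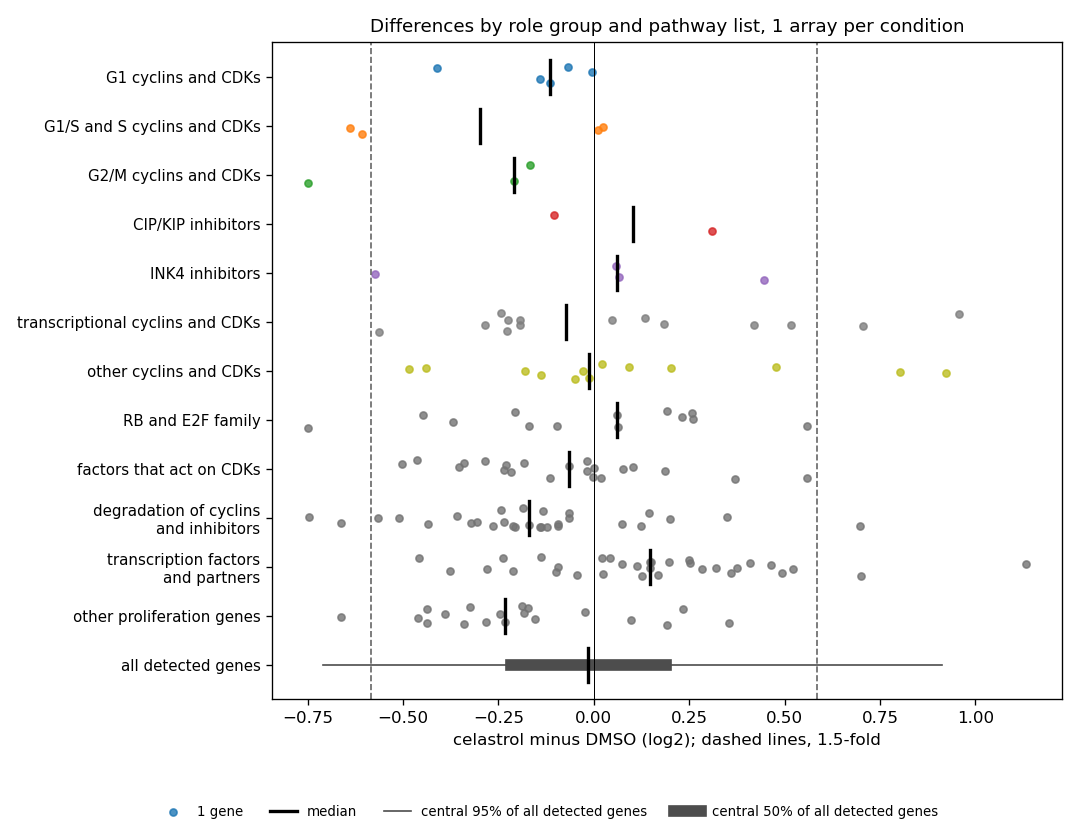
Differences (celastrol minus DMSO, log2; 1 array per condition) of detected genes in 7 role groups of the family and 5 pathway lists, with 1 point per gene and a black bar at each median. The bottom row gives all 13899 detected genes, whose central 95% ran from -0.71 to 0.91. Group medians lie between -0.30 and 0.15.

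The arrays had medians of 6.35 with celastrol and 6.33 with DMSO. Of 10 fibroblast markers 9 were detected, with 7 differences below 0, 2 above 0 and a median of -0.16. Over all detected genes 7216 of 13899 lay below 0. Vim was at 13.95 with celastrol and 13.85 with DMSO. Col1a1, the lowest of the list, was at 11.69 with celastrol and 12.16 with DMSO. Lum, at 4.04 with celastrol and 4.15 with DMSO, was not detected. Of markers of other cell types, 4 of 8 for macrophages, 2 of 5 for endothelium, 4 of 5 for epithelium and 4 of 5 for muscle passed the limit. Over the array 13899 of 19938 genes passed it. The 4 epithelial markers read close to the limit of 5.73, none above 5.97 (Krt14 with DMSO). Of the markers of other cell types that passed, only Cd68 (1.47) and Tnnt2 (0.87) differed by 1.5-fold. Cd68 was at 8.33 with celastrol and 6.86 with DMSO, and Tnnt2 at 9.21 with celastrol and 8.34 with DMSO. Ptprc, Itgam, Adgre1, Pecam1 and Epcam were under the limit on both arrays, and the part of other cells in the values above was not tested.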

How the data were processed

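The deposited table gave log2 values made by the authors with RMA (background correction, quantile normalization and a summary per probe set), per the submitters' processing notes. Its settings are not given in those sources. RMA compresses differences of dim probe sets. All columns of values belonged to the 2 samples (0 others). Of 35556 probe sets, GEO's platform annotation named 1 gene for 21789, several for 1621 and none for 12146, and only the first kind was used. No spread between cultures exists with 1 array per condition, so no test was run, and the number of arrays limits the precision. A fold is 2 to the power of the log2 difference. Every detected member is named, and up to 3 genes at each end of each pathway list. Other list genes were named after their values were seen. The members, lists and limits were chosen with earlier results of these data known. Listed genes without a probe set naming them alone were not analysed here. RefSeq tables (GRCm38.p6) gave promoter sequences for 40 of the 51 members. Alternatives were other detection limits, averaged probe sets, quantile normalization, a lowess trend (fraction 0.3) or the median difference subtracted, updated symbols, fold limits of 2 and 3, and a trimmed mean (10% from each end). The counting was tested on simulated data. Python 3.11.15, numpy 2.4.6, pandas 2.3.3, scipy 1.17.1, statsmodels 0.14.6 and matplotlib 3.10.9 were used.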

Additional observations from a re-analysis of the deposited data

Results flagged for a closer look

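The probe set annotated to Cdkn1a and 4930567H12Rik together was left out of the members and of the main counts and medians. It was looked at again because its signal on the celastrol array stood above that on the DMSO array by 2.54 on the log2 scale. Its value was 11.67 with celastrol and 9.13 with DMSO. The division of that signal between the genes was not tested.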

How the results depend on the processing

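No paired analysis was possible because each condition had 1 array. Of 99 recalculated counts and medians, 93 stayed within 1.5 times the reported count or within 0.21 of the reported median, the SD of receptor probe set differences, and none reversed a called value. After subtraction of a lowess trend 1 member was 1.5-fold lower, in place of 3, because Ccna2 (-0.56) and Ccne1 (-0.58) lay just inside the limit. With fold limits of 2 and 3, 0 members were past the limit in either direction. With no detection limit the G1/S and S phase median became -0.039, since Ccna1 entered the group. Of 192 recalculated member differences, 190 moved by less than 0.21. The mean of probe sets gave Cdk12 -0.18 and Cdk7 -0.55. All 8 members past 1.5-fold kept their sign under the 4 recalculations of single genes, and 44 of 48 members did so, the exceptions being Ccnd2, Ccnj, Ccny and Cdk14, all near 0. An alternative chosen after seeing the data, which counted the probe set shared by Cdkn1a and 4930567H12Rik, gave a CIP/KIP median of 0.31, in place of 0.10. Signal over background could not be examined without scanner files.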
